A study of Mus musculus with 6 samples.

Results

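The miR-17 seed family and miR-18 were followed here by name: every assay of the panel for miR-17, miR-18a, miR-18b, miR-20a, miR-20b, miR-93, miR-106a or miR-106b was taken, whichever strand of the hairpin it reads. That gave 18 assays for 8 microRNAs (miRNAs), of 750 miRNA assays in all. They were read in 3 prefrontal cortex samples of BTBR mice (labelled BTBR T+ Itpr3tf/J) and 3 of wild-type C57BL/6J mice, untreated males of 5 months. The labels give 3 cortices per strain but do not tie each sample to a mouse, so p-values measure the spread between these samples. The labels give C57BL/6J as the strain background of both groups, and BTBR, an inbred strain with low sociability that serves in autism research, was compared with the C57BL/6J control. The readout was the cycle threshold of a TaqMan OpenArray rodent panel, that is, the amplification cycle when fluorescence passes a fixed line. A higher threshold stands for less RNA, 1 cycle was read as a 2-fold difference, and 40 was read as undetermined. Thresholds of different assays were not taken as relative amounts, since the assays can differ in efficiency.

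A miRNA pairs with messenger RNAs mainly through its seed, bases 2 to 8, so miRNAs with a common seed share many predicted targets. The miR-17 family is best known for promoting proliferation, in tumours and in dividing progenitors including those of the developing cortex, where targets such as Cdkn1a and Bcl2l11 restrain the cell cycle or promote cell death. Its members come from 3 related clusters of hairpins, and miR-18a and miR-18b, from 2 of those clusters, carry a seed of their own.

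The guide strands are shown because assays for near-identical sequences read differently in the 2 strains. Mature sequences are those of RefSeq (GRCm38.p6), 5′ to 3′, with the seed in capitals. All 8 miRNAs were matched to that table through the mouse name, including those whose assay carries a human (hsa) or rat (rno) prefix. The targets that the assays themselves were designed on were not analysed here.
miR-17-5p, chr14:115043684-115043706, plus strand: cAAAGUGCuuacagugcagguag
miR-20a-5p, chr14:115044183-115044205, plus strand: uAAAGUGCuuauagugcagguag
miR-106a-5p, chrX:52742541-52742563, minus strand: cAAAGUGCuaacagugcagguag
miR-20b-5p, chrX:52742159-52742181, minus strand: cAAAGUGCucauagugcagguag
miR-93-5p, chr5:138165574-138165596, minus strand: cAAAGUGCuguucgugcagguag
miR-106b-5p, chr5:138165787-138165807, minus strand: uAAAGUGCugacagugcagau
miR-18a-5p, chr14:115043867-115043889, plus strand: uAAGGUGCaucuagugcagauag
miR-18b-5p, chrX:52742381-52742403, minus strand: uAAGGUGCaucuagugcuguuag

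Counted from 1 at the 5′ end, miR-106a differed from miR-17 by 1 base (U10A). By the same count miR-20a differed from miR-17 by 2 bases (C1U and C12U), and so did miR-20b (U10C and C12U). The miR-18 seed differed from that of miR-17 at 1 base, A4G. miR-18a and miR-18b differed from each other by 2 bases (A18U and A20U), outside the seed. In the RefSeq table, 7 mature mouse miRNAs carried the miR-17 seed. They were 6 members and miR-6383, for which the panel had no assay. Only miR-18a and miR-18b carried the miR-18 seed. The hairpins of miR-17, miR-18a and miR-20a lie together on chromosome 14, next to the annotated gene Mir17hg, a non-coding host transcript. Those of miR-106a, miR-18b and miR-20b lie together on the X chromosome near the non-coding gene Kis2, and those of miR-106b and miR-93 lie inside the bounds of Mcm7, a gene of the DNA replication helicase, on chromosome 5.

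The panel as a whole differed between the strains in how much was detected. A reading of at least 10 and under 40 cycles was counted as detected, and 347 to 404 of 750 assays were detected in BTBR samples, against 289 to 305 in C57BL/6J samples. The gap lay mostly in pool A, the letter that ends an assay's identifier, with 212 to 244 of 377 assays in BTBR and 175 to 180 in C57BL/6J. In pool B the counts were 114 to 161 of 373 in BTBR and 114 to 129 in C57BL/6J. Of the 7 assays for the neuronal miRNAs miR-124, miR-9, miR-128 and miR-129, 5 were detected in all 6 samples, as were 3 of 4 for the oligodendrocyte miRNAs miR-219 and miR-338. The guide assay of miR-9, one of the most abundant brain miRNAs, was undetermined in all C57BL/6J samples and in BTBR replicate 3, although its other strand, hsa-miR-9#, read 13.74 to 14.09 cycles in BTBR and 13.49 to 13.76 in C57BL/6J. The guide assay of miR-124, mmu-miR-124a, read 19.79 to 23.29 cycles in BTBR and 24.44 to 31.40 in C57BL/6J, whereas its other strand, hsa-miR-124#, was undetermined in all BTBR samples and read 13.68 to 22.74 cycles in C57BL/6J. Of the lists for other cells, assays detected in all 6 samples numbered 0 of 4 for blood-derived cells (miR-142, miR-223), 1 of 2 for endothelium (miR-126), 1 of 3 for red blood cells (miR-451, miR-144, miR-486), 0 of 1 for liver (miR-122) and 4 of 7 for striated muscle (miR-1, miR-133, miR-206). In the blood-derived list, hsa-miR-142-3p and an hsa-miR-223 assay were undetermined only in C57BL/6J replicate 3. There hsa-miR-142-5p was read in 2 samples and the other hsa-miR-223 assay in none. The red blood cell assay hsa-miR-486 read 15.20 to 16.66 cycles in BTBR and was undetermined in C57BL/6J. The others of that list differed from it: mmu-miR-451 read 19.74 to 20.72 cycles in BTBR and 21.10 to 21.43 in C57BL/6J, and HSA-MIR-144 was undetermined throughout. The part of these differences in the results was not tested, and the labels do not place samples on arrays.

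Of the 18 member assays, 11 had a reading in at least 1 sample and 7 had none. Members detected per sample numbered 8, 10 and 8 in BTBR replicates 1 to 3, against 6, 5 and 5 in C57BL/6J replicates 1 to 3. The counts of the strains did not overlap, as those of the whole panel did not. Pool A held 10 of the member assays, of which 7 had a reading, and pool B held 8, of which 4 had one.

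The guide assays of miR-17, miR-18a and miR-20a, from the chromosome 14 cluster, gave no reading in any C57BL/6J sample. The assay hsa-miR-20a (000580) had raw thresholds of 18.76, 18.25 and 18.98 cycles in BTBR, and was undetermined in all 3 C57BL/6J samples. The assay hsa-miR-18a (002422), the miR-18 guide of that cluster, stood at 25.06, 24.32 and 24.64 cycles in BTBR and was likewise undetermined in C57BL/6J. The assay hsa-miR-17 (002308) read 16.32 and 14.54 cycles in BTBR replicates 1 and 2, and was undetermined in BTBR replicate 3 and in all C57BL/6J samples. BTBR replicate 3 thus stood with its own strain for miR-20a and miR-18a, and with the C57BL/6J samples for miR-17.

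On chromosome 5, hsa-miR-106b (000442) had the same all-or-none reading as miR-20a. Its raw thresholds were 19.59, 18.77 and 17.89 cycles in BTBR, and it was undetermined in all 3 C57BL/6J samples. In all, 3 of the 18 member assays were detected in every BTBR and no C57BL/6J sample, against 28 of the 750 assays of the panel (3.73%). Without BTBR replicate 3, a comparison added after seeing the data, these counts were 4 members and 62 assays. The reverse, every C57BL/6J and no BTBR sample, held for 3 assays of the panel and no member. All 3 members were in pool A, as were 26 of the 28 assays. The 28 ranged in mean BTBR threshold from 12.56 to 29.89 cycles with a median of 18.66, and miR-20a (18.66) and miR-106b (18.75) lay at its middle. The pattern of miR-17, detected in BTBR replicates 1 and 2 alone, was shared by 34 assays, 28 of them in pool A, and the miR-9 guide was one of these. Detection of the panel moved with strain in the same way as that of the members, and its part in the members' readings was not tested. No fold follows from an undetermined assay. The authors' deposited table, which enters 40 as a value, gives a ratio of BTBR to C57BL/6J of 1899033 for miR-20a, 1828702 for miR-106b and 20423 for miR-18a.

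**Figure D1:**
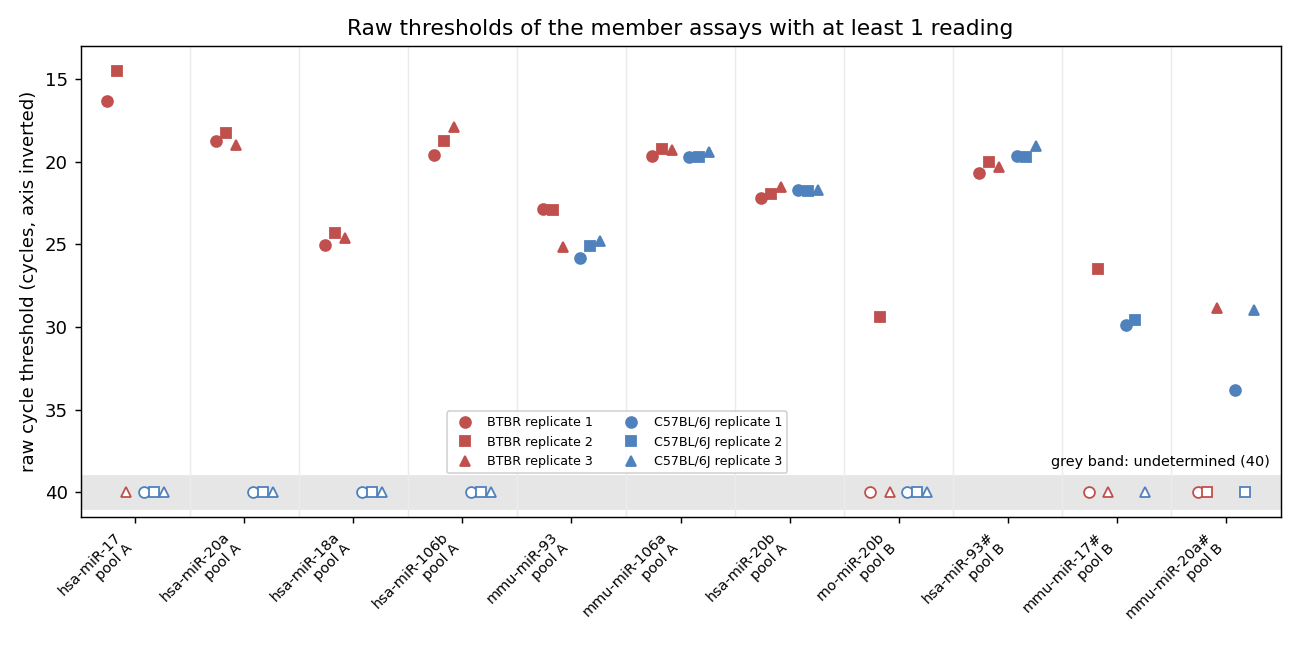
Raw cycle thresholds (vertical axis, inverted so that more RNA is up) of the 11 member assays with at least 1 reading, with BTBR samples in red on the left and C57BL/6J samples in blue on the right of each column; open symbols in the grey band are undetermined. The miR-20a, miR-18a and miR-106b assays read between 17.89 and 25.06 cycles in all BTBR samples and in no C57BL/6J sample. The assays mmu-miR-106a and hsa-miR-20b each read at nearly the same cycle in all 6.

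By contrast, 2 assays named for X-linked guides, mmu-miR-106a and hsa-miR-20b, were detected in every sample at nearly the same raw threshold. Whether the assays tell near-identical sequences apart was not tested. The assay mmu-miR-106a (002459), whose namesake in RefSeq differs from miR-17 by the 1 base U10A, read 19.68, 19.25 and 19.27 cycles in BTBR and 19.72, 19.70 and 19.44 in C57BL/6J. The BTBR values reached into the C57BL/6J range, and the means were 19.40 ± 0.246 cycles in BTBR and 19.62 ± 0.155 in C57BL/6J (SD, n = 3 each). The assay was therefore read in the 4 samples where that of miR-17 was not. The assay hsa-miR-20b (001014) read 22.18, 21.97 and 21.52 cycles in BTBR, against 21.73, 21.76 and 21.74 in C57BL/6J. Its BTBR values lay on both sides of the C57BL/6J ones, with means of 21.89 ± 0.338 cycles in BTBR and 21.74 ± 0.0148 in C57BL/6J (SD, n = 3 each). A second assay of the same name in pool B, rno-miR-20b (001326), gave 1 late reading, 29.38 cycles in BTBR replicate 2, and was undetermined elsewhere. The third member of the part from the X-linked cluster, miR-18b (mmu-miR-18b), was undetermined in all 6 samples.

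The Mcm7 hairpin of miR-93 was the only one of the 8 with both strands detected in all 6 samples. The panel had no opposite-strand assay for miR-106a or miR-18b, so those hairpins could not show both strands. The strands of miR-93 differed in how they stood between the strains. The guide assay mmu-miR-93 (001090) had raw thresholds of 22.87, 22.95 and 25.14 cycles in BTBR, against 25.82, 25.10 and 24.83 in C57BL/6J. BTBR replicates 1 and 2 read earlier than every C57BL/6J sample, and BTBR replicate 3 lay within the C57BL/6J range. The other strand, hsa-miR-93# (002139), read 20.709, 20.003 and 20.338 cycles in BTBR and 19.63, 19.74 and 19.07 in C57BL/6J. All BTBR values of that strand were later than all C57BL/6J values, with means of 20.35 ± 0.353 cycles in BTBR and 19.48 ± 0.357 in C57BL/6J (SD, n = 3 each). The strand is shown because it gave the lowest p among the members.
miR-93-3p, chr5:138165536-138165557, minus strand: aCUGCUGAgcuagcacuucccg

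The remaining opposite strands with an assay gave few or no readings. Such strands usually accumulate less than the guide. The assay mmu-miR-17# (002543) read 26.46 cycles in BTBR replicate 2 and 29.86 and 29.58 cycles in C57BL/6J replicates 1 and 2. It was thus read in 2 C57BL/6J samples in which the guide assay of miR-17 was undetermined. The assay mmu-miR-20a# (002491) read 28.87 cycles in BTBR replicate 3, and 33.84 and 28.96 cycles in C57BL/6J replicates 1 and 3. These late single readings show no order between the strains. The assays rno-miR-20a#, rno-miR-20b-3p, rno-miR-17-3p, hsa-miR-106b#, mmu-miR-18a# and mmu-miR-20b# were undetermined in all 6 samples.

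The strain comparison asked which miRNAs differ in level between the strains, and 4 of the 18 member assays had the 2 readings per strain that the test needed. On the authors' quantile-normalized thresholds, miR-93# and miR-20b fell in BTBR, and miR-106a and miR-93 did not pass. The assay hsa-miR-93# had normalized thresholds of 20.98, 21.25 and 20.87 cycles in BTBR and 19.29, 19.13 and 18.72 in C57BL/6J, which do not overlap. This was a log2 change of -1.99 (standard error 0.30, limma adjusted p = 0.0265), or 3.96-fold less in BTBR. For hsa-miR-20b the values stood at 22.80, 23.42 and 21.92 cycles in BTBR and at 21.08, 20.95 and 21.01 in C57BL/6J, again without overlap. Its log2 change was -1.70 (standard error 0.44, limma adjusted p = 0.0336). The guide mmu-miR-106a had 19.63, 20.14 and 19.63 cycles in BTBR and 19.48, 19.07 and 19.00 in C57BL/6J, a log2 change of -0.62 (standard error 0.31, limma adjusted p = 0.156). These values do not overlap either, so that BTBR lay lower in level throughout for 3 of the 4 members, against 57.7% of the 189 assays with 6 normalized values. The guide mmu-miR-93, at 23.34, 24.37 and 25.88 cycles in BTBR and 24.86, 24.17 and 24.05 in C57BL/6J, had a log2 change of -0.17 (standard error 0.69, limma adjusted p = 0.823), with an interval from -1.87 to 1.52. In bulk tissue, fewer cells of a type and less RNA per cell cannot be told apart.

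These normalized values carry a shift of the whole panel, whose median log2 change over 231 tested assays was -1.13, against a median of -1.16 over the 4 members. Of the 231 assays, 85 were called (36.8%), 82 of them lower in BTBR (35.5%), so that 2 of 4 members lower is a count of the same order as the panel's. Relative to the panel median, miR-93# lay at -0.86, miR-20b at -0.57, miR-106a at 0.51 and miR-93 at 0.95. With the normalized values centred on sample medians, neither of the falls passed: miR-93# was at -0.81 (limma adjusted p = 0.0948) and miR-20b at -0.52 (0.339). Neither assay passed when BTBR replicate 1 or 2, or C57BL/6J replicate 2 or 3, was left out, where limma adjusted p values were 0.0536 to 0.0709 for miR-93# and 0.0697 to 0.0944 for miR-20b. Without C57BL/6J replicate 1, miR-20b alone lost its call (0.0604). The authors' deposited table gives adjusted p values of 0.0143 for miR-93# and 0.148 for miR-20b.

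Raw thresholds were also scaled by subtracting, in every sample, the mean of the 237 assays with 6 readings, here called the global mean scale, and on it no member passed. Here 0 of 270 assays were called in limma (0%), with 71 at an unadjusted p under 0.05, and the panel median was -0.40. On this scale, where higher means more RNA, miR-93# stood at 1.27, 1.45 and 1.78 in BTBR and at 2.99, 2.49 and 2.82 in C57BL/6J. The log2 change of miR-93# was -1.26 (standard error 0.33, limma adjusted p = 0.135), with all BTBR samples below all C57BL/6J samples. It was the only one of the 4 members whose groups did not overlap, against 35% of the 237 assays with 6 readings. The guide miR-93 stood at -0.89, -1.50 and -3.02 in BTBR and at -3.20, -2.87 and -2.93 in C57BL/6J, so that BTBR replicate 3 lay among the C57BL/6J samples. Its log2 change was 1.20 (standard error 0.59), at a limma adjusted p of 0.251. The changes of miR-20b (-0.54, standard error 0.43) and miR-106a (-0.17, standard error 0.34) had limma adjusted p values of 0.415 and 0.733, and their groups overlapped.

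Across the scalings of the raw values the difference of miR-93# was negative throughout, from -2.06 against the U6 rRNA spots to -0.87 with no scaling. That of the guide miR-93 was positive throughout, from 0.40 to 1.60, but -0.17 on the authors' normalized values. The difference of miR-20b was negative under each, from -1.34 to -0.14. That of miR-106a was negative under most of them but 0.22 with no scaling and 0.049 with quantiles of the detected values. Without BTBR replicate 3, the global mean scale gave 57 calls among 258 assays (22.1%), 34 lower and 23 higher. In that fit the strands of miR-93 both passed, in opposite directions: the guide rose by a log2 change of 1.81 (standard error 0.34, limma adjusted p = 0.0346) and miR-93# fell by 1.40 on the log2 scale (standard error 0.31, limma adjusted p = 0.0399). Without BTBR replicate 1 the guide was at 0.75 on the global mean scale (limma adjusted p = 0.540), and without any 1 of the other samples but BTBR replicate 3 it did not pass either. On the normalized values without BTBR replicate 3 the guide was at 0.50 (limma adjusted p = 0.422).

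**Figure D2:**
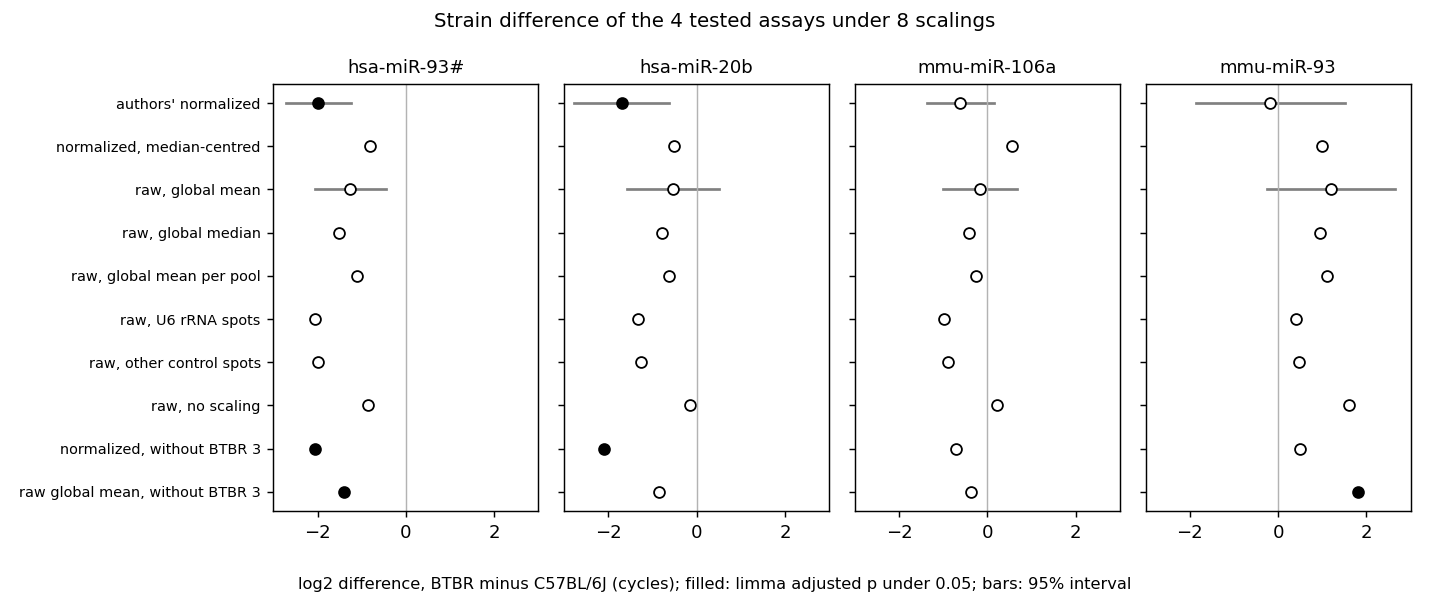
Log2 difference of BTBR minus C57BL/6J (horizontal axis, cycles) for the 4 tested member assays under 8 of the scalings, and without BTBR replicate 3 on the authors' normalized values and on the global mean scale; filled points have a limma adjusted p under 0.05 and bars are 95% intervals of the 2 fits described in the text. Plotted points of miR-93# and miR-20b are all left of 0, those of miR-93 are right of 0 except on the authors' normalized values, and those of miR-106a are left of 0 except with no scaling (0.22) and with median-centred normalized values (0.56), among the settings plotted.

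A difference between 2 assays within a sample needs no scaling of the sample when both share a pool. The 4 assays detected throughout were therefore also compared pair by pair on raw thresholds. Of the 6 pairs, 3 shared a pool, and the others can carry a difference between the pools. The guide miR-93 read later than miR-93# by 2.16, 2.95 and 4.80 cycles in BTBR and by 6.19, 5.36 and 5.75 cycles in C57BL/6J. The gap between the strands of this hairpin was thus smaller in every BTBR sample than in every C57BL/6J sample. The mean gap was 3.30 ± 1.36 cycles in BTBR and 5.77 ± 0.413 in C57BL/6J (SD, n = 3 each), a difference of -2.46 cycles (exact permutation p = 0.1, two-sided, adjusted p = 0.2 over 6 pairs). The difference was -2.24 cycles with each pool set on its own global mean, a step that bears on it because the strands were read in different pools. BTBR replicate 3 lay closest to the C57BL/6J samples.

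Set against the X-linked guide miR-106a, the threshold of miR-93# minus that of miR-106a was 1.03, 0.76 and 1.07 cycles in BTBR and -0.09, 0.04 and -0.37 cycles in C57BL/6J, again without overlap (difference 1.09 cycles, exact permutation p = 0.1, adjusted p = 0.2). The gap of miR-20b to miR-93# was 1.47, 1.96 and 1.18 cycles in BTBR and 2.10, 2.02 and 2.67 cycles in C57BL/6J (difference -0.73 cycles, exact permutation p = 0.1, adjusted p = 0.2). The 3 pairs without overlap all contain miR-93#, the only pool B assay among those compared, and the other 3 pairs, within pool A, overlapped. The assay and its pool cannot be told apart here. How many other pairs of the panel's assays separate the strains was not counted. Of the 237 single assays with 6 readings, 35% had groups that did not overlap on the global mean scale. With each pool set on its own global mean, the difference was 0.86 cycles for miR-93# minus miR-106a. That for miR-20b minus miR-93# was -0.50 cycles, and both pairs stayed without overlap. With 3 samples a strain, 0.1 is the smallest p that this exact test can give, so no pair could pass 0.05. The X-linked pair had the difference nearest to 0 of the 6, miR-20b reading later than miR-106a by 2.49, 2.72 and 2.25 cycles in BTBR and by 2.01, 2.06 and 2.30 cycles in C57BL/6J (difference 0.36 cycles, exact permutation p = 0.2, adjusted p = 0.3).

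**Figure D3:**
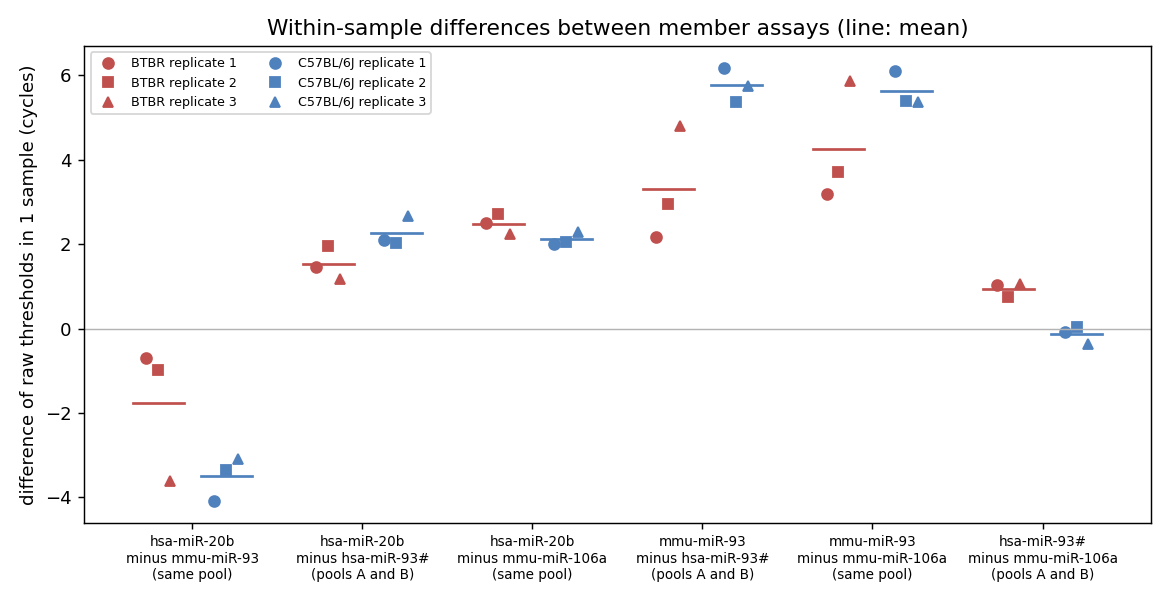
Difference of raw thresholds between 2 member assays in the same sample (vertical axis, cycles) for the 6 pairs of assays detected in all samples, BTBR in red on the left and C57BL/6J in blue on the right, with a line at each mean. The strains do not overlap in the 3 pairs that contain miR-93#, which are also the 3 pairs across pools A and B. Pairs of other assays of the panel were not counted. For miR-93 minus miR-93# the values are 2.16 to 4.80 cycles in BTBR and 5.36 to 6.19 in C57BL/6J.

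Ranks among the 237 assays detected throughout, where rank 1 is the earliest threshold, place the members without any scaling. The rank of miR-93# was 83, 87 and 81 in BTBR and 69, 72 and 67 in C57BL/6J. That of the guide miR-93 was 135, 147 and 175 in BTBR and 176, 171 and 176 in C57BL/6J, with only BTBR replicate 3 inside the C57BL/6J range. miR-106a ranked 66, 68 and 62 in BTBR and 72, 70 and 72 in C57BL/6J, which do not overlap, and miR-20b ranked 122, 130 and 104 in BTBR and 101, 100 and 110 in C57BL/6J, which do. How many of the 237 assays do not overlap by rank was not counted. On the global mean scale the groups did not overlap for 35% of them. The sign for miR-106a by rank is opposite to that of its normalized change.

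The hairpins that share transcripts with the family were read by 9 assays, for miR-19a, miR-19b, miR-92, miR-363 and miR-25. The test could take 1 of the 9, hsa-miR-19b, which passed on the normalized values. Its raw thresholds were 18.15, 17.81 and 17.53 cycles in BTBR, against 17.15, 17.14 and 17.14 in C57BL/6J, without overlap. It fell by 1.38 on the log2 scale (standard error 0.34, limma adjusted p = 0.0301), which is -0.25 relative to the panel median. On the global mean scale it was at -1.08 (limma adjusted p = 0.160). Other partners had detection patterns seen in the family's own guides and across the panel. Of the 750 assays, 28 were read in every BTBR and no C57BL/6J sample, 26 of them in pool A. Another 34 were read in BTBR replicates 1 and 2 alone, 28 of them in pool A, the pool of the partners named next. The assay hsa-miR-92 read 17.30, 16.79 and 16.76 cycles in BTBR and was undetermined in C57BL/6J, as miR-20a was. The assays hsa-miR-19a (28.36 and 27.00 cycles) and hsa-miR-25 (26.83 and 25.25 cycles) were read in BTBR replicates 1 and 2 only, as miR-17 was. The other 5 partner assays were undetermined throughout.

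The assays whose profile over the 6 samples was most like that of miR-93# were sought among 233 other assays on the global mean scale, each centred on its own mean. The closest were mmu-miR-376a, at a root mean square difference of 0.0789 cycles, hsa-miR-410 at 0.147 and hsa-miR-15b at 0.158. The median over the 233 assays was 0.713 cycles.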

How the data were processed

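RNA (100 ng per sample, RNA integrity number 9) was purified on columns, reverse transcribed, pre-amplified and run on the panel, per the labels' protocols. The authors deposited raw cycle thresholds and quantile-normalized ones, per the file headers. Their deposited table of comparisons holds p-values, a test statistic (a score), the BTBR to C57BL/6J ratio and a log2 column of opposite sign. The authors' other steps were worked out by rebuilding their 306 normalized assays from the raw table (largest difference 3.33e-09 cycles): undetermined wells entered their quantile ranking as 40, so a difference in how many assays were detected enters the normalized values. Thresholds have no counting depth, and 1 reaction per assay and 3 samples per strain set the precision. Thresholds times -1, with undetermined cells missing, were tested with limma 3.58.1 in R 4.3.3. The fit used assays with at least 2 detected values per strain, strain alone in the model and p-values adjusted by Benjamini-Hochberg over all assays tested, at 0.05. On simulated data with 231 assays, 50 runs recovered 17.1% of changes of 1 cycle, 55.4% of 2 and 72.8% of 3, with 4.97% of calls false. These shares describe the simulated data and give no rate of false calls for the measured samples. Pairs of assays were compared with exact permutation tests. Members, partners and marker lists were chosen with earlier results of these data known. All members were named, partners with values where they passed or, after their values were seen, where detected; likeness was sought for the member of lowest p among those with 6 readings. Alternatives were other scalings, other detection rules, a replicate block and leaving out each sample.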

Additional observations from a re-analysis of the deposited data

Results flagged for a closer look

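The 5 member assays outside the strain test named here gave readings in BTBR and none in C57BL/6J. Mean raw thresholds over the BTBR samples that read were 18.66 cycles for hsa-miR-20a (3 of 3 samples), 18.75 for hsa-miR-106b (3 of 3), 24.67 for hsa-miR-18a (3 of 3), 15.43 for hsa-miR-17 (2 of 3) and 29.38 for rno-miR-20b (1 of 3). The corresponding C57BL/6J count was 0 of 3 for each. Of the 750 assays of the panel, 28, 54 and 32 were read in 3, 2 and 1 BTBR samples and in no C57BL/6J sample. The reverse held for 3, 8 and 17 assays. The other untested members with readings, mmu-miR-17# and mmu-miR-20a#, were each read in 1 BTBR and 2 C57BL/6J samples. Groups of 3 are too small for a check of single outlying samples.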

How the results depend on the processing

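On the normalized values, centring on sample medians left 2 calls over all assays and 0 among the members, and turned miR-93 to 1.00 and miR-106a to 0.56. With 40 kept as a value, 96 assays and 5 members were called, since undetermined assays then enter the test. With the replicate number as a block, 32 assays and 1 member were called, and miR-20b had a limma adjusted p of 0.0507. The numbers share only a label: deviations of same-numbered samples correlated at 0.083, 0.421 and -0.0013 over 189 assays. Leaving out 1 sample at a time gave 0 to 101 calls over all assays and 0 to 2 among the members, and put miR-93 between -0.77 (without BTBR replicate 1) and 0.50 (without BTBR replicate 3). On the global mean scale those ranges were 0 to 57 and 0 to 2. There, 1 assay was called against the U6 rRNA spots, and the block gave 0 calls. The difference of miR-106a turned to 0.22 with no scaling, 0.049 with quantiles of detected values and 0.035 with late readings removed. Members detected averaged 7 in BTBR and 4 in C57BL/6J in the normalized table, against 8.67 and 5.33 in the raw one. Assays read in every BTBR and no C57BL/6J sample numbered 29 to 62 when 1 sample was left out, and members 3 to 4. The cause of these moves was not tested, apart from 40 entering as a value.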
